A study of Mus musculus with 8 samples.

Results

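The genes described here are the enzymes that remove superoxide and peroxides, the glutathione and thioredoxin systems that keep them reduced, and the transcription factor Nrf2 with its repressor and target genes. They were taken as the 40 entries of the count tables whose symbol is on a fixed list of these enzymes and regulators, out of 47628 entries that name a gene, and all 40 were found. RNA seq was performed on whole cochleae of 4 untreated WT mice (animals 4, 5, 6 and 8) and 4 untreated *Opa1*+/- mice (animals 2 and 7 and a pair with 3-digit numbers, called A and B in the order of their numbers). The study's methods give their age as 21 days, while its sample list heads this group 1 month. The *Opa1*+/- mice are heterozygous for a knock-in of the delTTAG deletion, which recurs in human dominant optic atrophy, and the WT mice are littermates, so that both groups share a mixed C57BL/6J and 129 Sv/Pas background. The study used both sexes, and its sample list gives 8 cochleae from 4 mice per genotype for this assay. The comparison asks whether a lower dose of *Opa1*, the dynamin-related GTPase that fuses the inner mitochondrial membrane, came with altered transcripts of the redox defence before the hearing loss that these mice develop as adults.

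Superoxide leaks from the respiratory chain and is converted by superoxide dismutases to hydrogen peroxide, which catalase, glutathione peroxidases and peroxiredoxins turn into water. Glutathione and thioredoxin supply the electrons and are themselves reduced by NADPH-dependent reductases. Nrf2, encoded by *Nfe2l2*, is held in the cytoplasm and marked for degradation by *Keap1*, and after release it binds antioxidant response elements in the promoters of many of these genes together with small Maf proteins. Its activity is therefore set largely at the level of the protein, and the transcripts of its targets are the usual readout in RNA. In the cochlea, hair cells and auditory neurons with high energy use are regarded as sensitive to oxidative damage.

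Levels are given as counts per 1000000 counts of library (CPM), scaled by edgeR's TMM factors, where mice are compared, and as TPM, which also divides by exon length, where genes are compared. In sentences that list a value for each mouse, the order is always 4, 5, 6 and 8 for WT mice and 2, 7, A and B for *Opa1*+/- mice. Counts on named genes ranged from 15978051 to 20828030 per mouse. *Opa1* stood at 119, 126, 112 and 122 CPM in the WT mice and 63.5, 68.4, 60.4 and 70.02 CPM in the *Opa1*+/- mice, lower in each *Opa1*+/- mouse than in each WT mouse (log2 fold change -0.87, SE 0.068, edgeR adjusted p = 0.00515), as each genotype label has it. With all 8 mice the adjusted p of *Opa1* was 4.41e-28 with DESeq2 and 0.00392 with limma voom. The edgeR call for *Opa1* was lost without *Opa1*+/- mouse 2 (log2 fold change -0.85, adjusted p with edgeR 0.0704), with the erythroid sum described below as a covariate (-0.89, adjusted p with edgeR 0.0535) and without mice A and B (-0.86, adjusted p with edgeR 0.26). The cochlear genes *Coch*, at 2301 to 3443 CPM, *Otos*, at 344 to 628 CPM, *Otof*, at 28.8 to 56.0 CPM, and *Slc26a5*, at 1.24 to 3.27 CPM, were present in each mouse. The summed level of 18 erythroid genes varied from 7783 to 21608 CPM in the WT mice and from 15180 to 25160 CPM in the *Opa1*+/- mice, and its relation to the antioxidant genes is given with the results.

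Among these genes the 5 most abundant per length were glutathione peroxidases and glutathione S-transferases, though other members of their roles were far lower. Catalase and the glutathione peroxidases ran from 8.96 to 266 TPM, and the conjugation, quinone and haem enzymes from 11.7 to 240.2 TPM. *Gpx3*, the secreted plasma glutathione peroxidase, stood highest at 266 TPM over the 8 mice, followed by the glutathione S-transferases *Gstm1*, at 240.2 TPM, and *Gsta4*, at 225 TPM, and by the glutathione peroxidases *Gpx4*, at 198 TPM, and *Gpx1*, at 180.4 TPM. The ranges over mice of these 5 genes overlapped, since the lowest mouse of *Gpx3* had 219.8 TPM and the highest mouse of *Gpx1* 221.9 TPM. In all, 9 members exceeded 100 TPM, the other four being *Prdx2*, *Txnip*, *Txn1* and *Prdx5*. The 7 members under 10 TPM were *Gpx7*, *Glrx*, *Nnt*, *Txnrd3*, *Glrx2*, *Gss* and *Txnrd2*, the last of which, the mitochondrial thioredoxin reductase, had 4.52 TPM. *Nfe2l2* stood at 30.2 TPM, above its repressor *Keap1* at 14.9 TPM. Together the 40 genes made up 2370 to 2815 TPM of each library. Exon length here joins all annotated exons of a gene, 1813 bases for *Gpx3* and 3970 for *Sod1*, so the order of genes depends on the annotation. Levels by longest transcript are not given here.

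**Figure D1:**
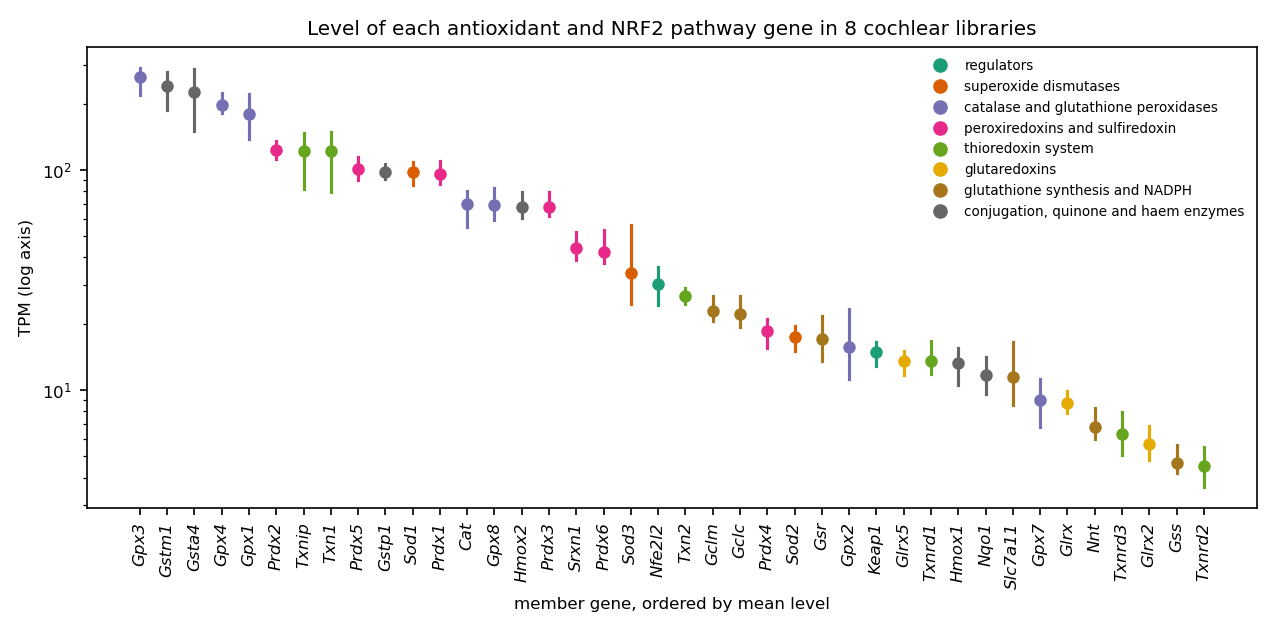
The vertical axis gives TPM on a log axis and the horizontal axis the 40 genes in order of mean level; points are means over 8 mice, bars run from the lowest to the highest mouse, and colours mark roles. Levels run from 266 TPM for *Gpx3* down to 4.52 TPM for *Txnrd2*, and the longest bars relative to their means belong to genes such as *Gpx2*, *Sod3*, *Slc7a11* and *Gsta4*.

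The members differed widely in how steady they were between mice. *Gpx2*, a glutathione peroxidase best known from epithelia, varied most, with 2.39 times as much in the highest as in the lowest of the 8 mice on the CPM scale. It was followed by the secreted superoxide dismutase *Sod3* at 2.00 times, the cystine transporter subunit *Slc7a11* at 1.97 times, *Gsta4* at 1.82 times and the cytosolic thioredoxin *Txn1* at 1.81 times. The steadiest were the constitutive haem oxygenase *Hmox2* at 1.08 times, the catalytic subunit of glutamate-cysteine ligase, *Gclc*, at 1.11 times, and *Nfe2l2* at 1.11 times.

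Between genotypes, no antioxidant gene passed the threshold. In edgeR's quasi-likelihood fit, with p-values adjusted by the method of Benjamini and Hochberg over 19366 genes, 0 of the 40 members had an adjusted p under 0.05, while 0.0258% of all genes tested did. At an unadjusted p under 0.05, where 6.72% of all genes tested fell, 1 member was higher in *Opa1*+/- mice (3.51% of all genes were) and 0 were lower (3.22% of all genes were). DESeq2 also called 0 members, with 3 at an unadjusted p under 0.05, against 0.119% and 5.76% of all genes tested. Limma voom called 0 members, with 2 at an unadjusted p under 0.05, against 0.0103% and 6.9%. The member with the lowest edgeR p was *Gpx4*, and DESeq2 added *Slc7a11* and *Sod1* and voom added *Sod1*.

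Fold changes of the members lay close to 0 on either side. The median log2 fold change was 0.032, against 3.95e-04 over all genes tested, with 23 members above 0 and 17 below, and the values ran from -0.33 for *Slc7a11* to 0.31 for *Gpx2*. The median of the members was 0.011 to 0.041 with 1 mouse left out and 0.0021 with library totals. The 95% interval of the log2 fold change lay within 0.5 on either side of 0 for 34 of 40 members, 85%, and for 63.9% of all genes tested. Those that did not were *Sod3*, *Gpx1*, *Gpx2*, *Txnrd2*, *Slc7a11* and *Gsta4*, whose intervals reached past 0.5. Leaving out 1 mouse moved the log2 fold change by more than 1.5 times or reversed it for 34 of the 40 members, all but *Sod1*, *Gpx4*, *Glrx2*, *Gss*, *Nqo1* and *Hmox2*. The measure is relative to each fold change, so members near 0, such as *Prdx1* at -0.0023, exceeded it with small shifts. The share over all genes was not computed. Levels of 1 member, *Gstp1*, did not overlap between genotypes in the direction of higher in *Opa1*+/- mice, as for 1.98% of all genes tested (0 members with DESeq2 size factors or library totals), and those of 1 member, *Nqo1*, in the direction of lower, as for 2.33%. Since the samples are whole organs, fewer cells of a type and less RNA per cell cannot be told apart in any of these values.

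**Figure D2:**
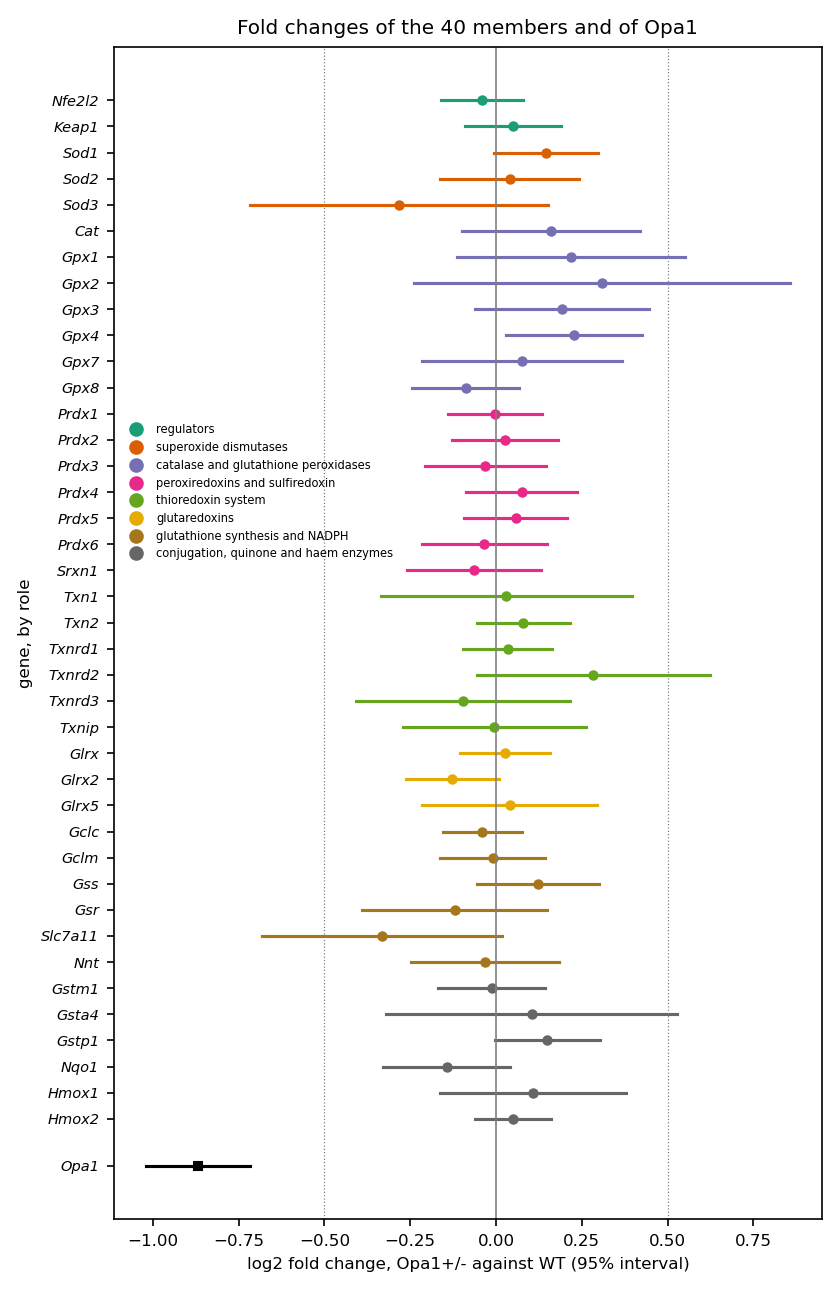
The horizontal axis gives the log2 fold change of *Opa1*+/- against WT mice with its 95% interval from edgeR for the 40 genes, grouped and coloured by role, and for *Opa1* (black square); dotted lines mark 0.5 on either side of 0. The interval of *Gpx4* lies above 0 before adjustment, those of the other 39 members include 0, and *Opa1* lies at -0.87.

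The regulators differed little between genotypes, with narrow intervals. *Nfe2l2* (chromosome 2, 75675513 to 75704641, - strand of GRCm38) had 66.6, 63.4, 64.9 and 66.7 CPM in the WT mice and 64.9, 61.7, 67.2 and 60.4 CPM in the *Opa1*+/- mice. The groups overlapped (log2 fold change -0.041, SE 0.054, edgeR adjusted p = 0.905), and the 95% interval of the log2 fold change was -0.16 to 0.079, a change of between -10.6% and 5.65%. *Keap1* (chromosome 9, 21229730 to 21239361, - strand), the adaptor that presents Nrf2 to the *Cul3* ubiquitin ligase, had 39.0, 36.4, 42.8 and 37.3 CPM in the WT mice and 41.8, 40.4, 39.5 and 39.3 CPM in the *Opa1*+/- mice, again with overlap (log2 fold change 0.050, SE 0.062, edgeR adjusted p = 0.899, interval -0.089 to 0.19). Exons of *Keap1* overlap in the annotation only those of *Gm16754*, with 14 counts over all mice. Neither value bears on the amount or location of the Nrf2 protein.

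Of the 40 members, 12 are textbook Nrf2 targets, namely *Prdx1*, *Srxn1*, *Txnrd1*, *Gclc*, *Gclm*, *Gsr*, *Slc7a11*, *Gstm1*, *Gsta4*, *Gstp1*, *Nqo1* and *Hmox1*. None of the 12 passed the adjusted threshold with edgeR, 0 had an unadjusted p under 0.05, and DESeq2 gave 1 (*Slc7a11*) and voom 0 at that level, beside 6.72%, 5.76% and 6.9% of all genes tested with edgeR, DESeq2 and voom. Their median log2 fold change was -0.011, with 4 above 0 and 8 below. Promoter windows of RefSeq (GRCm38.p6), from 250 bases before to 50 after a gene's start, were searched on both strands for the core of the antioxidant response element, TGACNNNGC. Windows were given for 33 members. The core occurred in 4 of the 8 targets with a window and in 2 of the 25 other members with one, *Nfe2l2* and *Sod1*, against 3781 of all 27025 genes with a window, 14%. Over windows rather than genes, 12.4% of all 32851 held it. The stretches around the core in 3 targets are shown because Nrf2 is known to act on these genes through such elements. Capitals mark the core, which lies in the opposite orientation to the gene in all 3, at chr4:116685436-116685504 (+ strand) for *Prdx1*, chr3:122245393-122245461 (+ strand) for *Gclm* and chr10:82859084-82859152 (+ strand) for *Txnrd1*. For *Txnrd1*, 3 windows were given, and only the one at the middle of the 3 starts holds the core. The core begins 133, 134 and 92 bases before the start of that window's transcript for *Prdx1*, *Gclm* and *Txnrd1*, and in the remaining target, *Srxn1*, it lies 29 bases after the start.
Prdx1: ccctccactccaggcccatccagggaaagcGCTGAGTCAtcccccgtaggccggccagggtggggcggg
Gclm: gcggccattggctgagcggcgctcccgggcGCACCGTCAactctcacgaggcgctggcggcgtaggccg
Txnrd1: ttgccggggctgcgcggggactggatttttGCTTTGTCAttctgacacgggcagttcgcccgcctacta
The genes that carry these 3 stretches had small fold changes. *Prdx1*, which reduces hydrogen peroxide in the cytosol, had a log2 fold change of -0.0023 (interval -0.14 to 0.14), *Gclm*, the modifier subunit of glutamate-cysteine ligase, -0.0095 (interval -0.16 to 0.14), and *Txnrd1*, the cytosolic thioredoxin reductase, 0.034 (interval -0.10 to 0.16). A match to these letters describes the window and says nothing of whether Nrf2 was bound there in the cochlea.

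Among superoxide dismutases, *Sod1* came nearest to a difference. *Sod1*, the copper-zinc enzyme of the cytosol (chromosome 16, 90220754 to 90226329, + strand), had 228, 208, 192 and 204 CPM in the WT mice and 232, 217, 240.2 and 231 CPM in the *Opa1*+/- mice. The value of WT mouse 4 lay within the range of the *Opa1*+/- mice and the other three WT mice lay below it (log2 fold change 0.15, SE 0.068, edgeR adjusted p = 0.749, unadjusted p with edgeR 0.0573, DESeq2 0.0353). *Sod2*, the manganese enzyme of the mitochondrial matrix, stood at 96.8 ± 12.6 CPM over the WT mice and 99.5 ± 4.31 CPM over the *Opa1*+/- mice (each ± SD, n = 4). Its values were 86.2, 114, 97.1 and 89.4 CPM in the WT mice and 105, 100.2, 94.4 and 98.4 CPM in the *Opa1*+/- mice, so that the WT mice spanned all the *Opa1*+/- mice (log2 fold change 0.040, SE 0.090, edgeR adjusted p = 0.946). *Sod3* stood at 119 CPM in WT mouse 6 and at 59.6 to 70.1 CPM in the other seven mice. Its log2 fold change of -0.28 became -0.014 without that mouse, in which the summed level of 9 skeletal muscle genes was also the highest of all mice, 2014 CPM against 16.8 to 829.8 CPM. In WT mouse 6 the sums of hair cell (536 CPM), stria vascularis (1718 CPM) and macrophage genes (272 CPM) were the highest of all mice as well. So were those of fibrocyte and gap junction genes (5547 CPM) and of the genes that define the cochlea (4178 CPM). The part of muscle or of any other tissue in the *Sod3* value was not tested.

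Catalase and the glutathione peroxidases had a median log2 fold change of 0.19, the highest of the 8 roles, with 6 of 7 above 0. With the erythroid sum, which was 1.47 times as high on average in *Opa1*+/- mice, as a covariate, the median was 0.059 with 5 of 7 above 0, and it was no longer the highest, that of the superoxide dismutases being 0.069. *Gpx4*, the selenoenzyme that reduces lipid peroxides in membranes and guards against ferroptosis (chromosome 10, 80047166 to 80056439, + strand), had 196, 184, 176 and 158 CPM in the WT mice and 203, 186, 215 and 230.5 CPM in the *Opa1*+/- mice. Means were 178 ± 15.98 CPM over the WT mice and 209 ± 18.8 CPM over the *Opa1*+/- mice (each ± SD, n = 4), 17.0% higher with a 95% interval of 2.05% to 34.2%, and the groups overlapped because WT mouse 4 lay above *Opa1*+/- mouse 7 (log2 fold change 0.23, SE 0.088, edgeR adjusted p = 0.722, unadjusted p with edgeR 0.0286). *Gpx4* therefore did not pass the adjusted threshold, and its log2 fold change was 0.088 with the erythroid sum as a covariate.
*Gpx1*, the abundant cytosolic enzyme that red blood cells also carry, had 181, 141, 112 and 111 CPM in the WT mice and 156, 148, 174 and 157 CPM in the *Opa1*+/- mice. Here WT mouse 4 was the highest of all 8 mice and WT mice 6 and 8 were the lowest (log2 fold change 0.22, SE 0.15, edgeR adjusted p = 0.790). The log2 fold change of *Gpx1* was 0.39 without WT mouse 4, 0.14 without WT mouse 6 and 0.13 without WT mouse 8. *Gpx3* had 226, 286, 298 and 212 CPM in the WT mice and 283, 295, 276 and 314 CPM in the *Opa1*+/- mice, with WT mice 4 and 8 below the rest and the other two WT mice inside the range of the *Opa1*+/- mice (log2 fold change 0.19, SE 0.11, edgeR adjusted p = 0.772), and the log2 fold change was 0.11 without WT mouse 8. *Cat*, which breaks down hydrogen peroxide in peroxisomes, had 102, 122, 81.4 and 86.2 CPM in the WT mice and 108, 113, 107 and 108 CPM in the *Opa1*+/- mice. The WT mice spread on both sides of a narrow *Opa1*+/- range (log2 fold change 0.16, SE 0.12, edgeR adjusted p = 0.807). Its log2 fold change was 0.28 without WT mouse 5, 0.083 without WT mouse 6 and 0.10 without WT mouse 8.
The other three peroxidases of this role are *Gpx2*, *Gpx7* and *Gpx8*, the last pair of which act in the endoplasmic reticulum. *Gpx2* had the highest log2 fold change of any member, 0.31, but *Opa1*+/- mouse B alone stood at 48.8 CPM, against 20.4 to 32.7 CPM in the other mice, and the value was 0.023 without it. *Gpx7* and *Gpx8* had log2 fold changes of 0.076 and -0.088, with adjusted p-values with edgeR of 0.931 and 0.826.

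The peroxiredoxins, thiol peroxidases that are recycled by thioredoxin, and sulfiredoxin, which rescues them from overoxidation, had small fold changes throughout. Their 7 log2 fold changes lay between -0.063 (*Srxn1*) and 0.075 (*Prdx4*, the enzyme of the endoplasmic reticulum), with a median of -0.0023, and all 7 intervals lay within 0.5 of 0. *Prdx2*, the most abundant of them and a major protein of red blood cells, had 224, 225, 194 and 199.8 CPM in the WT mice and 207, 219, 208 and 224 CPM in the *Opa1*+/- mice. The genotypes overlapped throughout (log2 fold change 0.026, SE 0.069, edgeR adjusted p = 0.955). The mitochondrial *Prdx3* and *Prdx5* and the phospholipid-reducing *Prdx6* also had overlapping groups, with log2 fold changes of -0.031, 0.057 and -0.034. Exons of *Prdx2* overlap those of *Rnaseh2a* and *Junb*, and exons of *Prdx5* those of *Trmt112*, all on the opposite strand. Counts of these pairs are uncertain because the use of strand in counting is not given in the sources used here.

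In the thioredoxin system, the largest fold change was that of *Txnrd2* (chromosome 16, 18426384 to 18479073, + strand), 11.1 Mb from *Opa1*. It had 12.2, 11.5, 9.50 and 7.74 CPM in the WT mice and 10.5, 12.4, 13.6 and 13.3 CPM in the *Opa1*+/- mice. WT mice 6 and 8 lay below all *Opa1*+/- mice, and the other two WT mice lay within their range (log2 fold change 0.28, SE 0.15, edgeR adjusted p = 0.762). The log2 fold change of *Txnrd2* was 0.17 without WT mouse 8. *Txnrd2* had 1617 counts over all mice, and this count is among the uncertain ones.
*Txnip*, which binds and restrains thioredoxin, had 207, 242, 186 and 222 CPM in the WT mice and 227, 231, 228 and 167 CPM in the *Opa1*+/- mice. *Opa1*+/- mouse B was the lowest of all mice (log2 fold change -0.0046, SE 0.12, edgeR adjusted p = 0.996), and the log2 fold change was 0.093 without it. *Txn1* ranged from 47.3 to 85.8 CPM over the 8 mice, WT mouse 6 being the lowest. The mitochondrial thioredoxin *Txn2*, *Txnrd1* and the testis-rich thioredoxin-glutathione reductase *Txnrd3* had log2 fold changes of 0.080, 0.034 and -0.10, with adjusted p-values with edgeR of 0.818, 0.929 and 0.916.

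The glutaredoxins use glutathione to reduce mixed disulphides, and their mitochondrial members also serve iron-sulphur proteins. *Glrx2* had 27.5, 30.3, 31.2 and 28.9 CPM in the WT mice and 25.7, 27.1, 27.8 and 27.4 CPM in the *Opa1*+/- mice. *Opa1*+/- mouse 2 was the lowest of all mice and *Opa1*+/- mouse A lay above WT mouse 4, so the groups overlapped (log2 fold change -0.13, SE 0.060, edgeR adjusted p = 0.757). *Glrx5*, which passes iron-sulphur clusters on within mitochondria and is needed for haem synthesis in red cell precursors, had 31.2, 29.9, 27.9 and 23.0 CPM in the WT mice and 29.2, 25.3, 27.1 and 33.5 CPM in the *Opa1*+/- mice. *Opa1*+/- mouse B was the highest and WT mouse 8 the lowest (log2 fold change 0.040, SE 0.11, edgeR adjusted p = 0.960). *Glrx*, the cytosolic enzyme, had a log2 fold change of 0.027 (interval -0.10 to 0.16).

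Genes of glutathione synthesis and NADPH supply had log2 fold changes below 0 in 5 of 6 cases, with a median of -0.036. *Slc7a11* (chromosome 3, 49892526 to 50443614, - strand), the cystine-importing subunit of the antiporter that feeds glutathione synthesis, had the lowest value of any member. Its levels were 96.3, 82.4, 129.7 and 94.1 CPM in the WT mice and 70.8, 91.7, 66.0 and 91.1 CPM in the *Opa1*+/- mice. WT mouse 6 was the highest, *Opa1*+/- mice 2 and A were the lowest, and *Opa1*+/- mice 7 and B lay between WT mouse 5 and the other three WT mice (log2 fold change -0.33, SE 0.16, edgeR adjusted p = 0.749, unadjusted p with edgeR 0.0599, DESeq2 0.0351). Means were 100.6 ± 20.3 CPM over the WT mice and 79.9 ± 13.4 CPM over the *Opa1*+/- mice (each ± SD, n = 4), a change of -20.5% with an interval of -37.6% to 1.18%, and without WT mouse 6 the log2 fold change was -0.19.
*Gss*, which joins glycine to complete glutathione, had 14.0, 15.2, 14.5 and 16.1 CPM in the WT mice and 16.9, 15.0, 17.0 and 16.3 CPM in the *Opa1*+/- mice (log2 fold change 0.12, SE 0.079, edgeR adjusted p = 0.790). It has 2241 counts over all mice and overlaps on the opposite strand the exons of *Acss2*, with 7086 counts and a log2 fold change of -0.066. *Gclm* had 87.3, 84.7, 74.1 and 81.0 CPM in the WT mice and 75.8, 84.5, 80.0 and 84.6 CPM in the *Opa1*+/- mice, with overlapping groups (log2 fold change -0.0095, SE 0.068, edgeR adjusted p = 0.983). Its exons overlap on the same strand those of *Gm6061*, which had 19504 counts against 11746 for *Gclm* and a log2 fold change of 0.024, so the division of reads between these entries is uncertain. *Gclc* had a log2 fold change of -0.040 (interval -0.16 to 0.075), and *Gsr*, which reduces oxidised glutathione, -0.12 (interval -0.39 to 0.15). The value of *Gsr* was -0.032 without WT mouse 4, -0.20 without WT mouse 6, -0.052 without *Opa1*+/- mouse 7 and -0.19 without mouse B.
*Nnt*, the inner membrane transhydrogenase that makes NADPH in mitochondria, had 24.9, 25.0, 33.0 and 25.9 CPM in the WT mice and 26.7, 25.1, 27.3 and 27.4 CPM in the *Opa1*+/- mice. WT mouse 6 stood above the other seven, which lay between 24.9 and 27.4 CPM (log2 fold change -0.032, SE 0.10, edgeR adjusted p = 0.960). C57BL/6J mice carry a deletion of several *Nnt* exons, and these mice are of mixed background. Counts per gene do not show which exons were read, and whether the deletion segregated among the 8 mice was not tested.

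Enzymes of conjugation and of quinone and haem breakdown included both members whose groups did not overlap. *Gstp1* (chromosome 19, 4035407 to 4037985, - strand), a glutathione S-transferase, had 81.7, 81.7, 83.8 and 79.8 CPM in the WT mice and 86.8, 83.8, 90.3 and 102 CPM in the *Opa1*+/- mice. The highest WT mouse (6) and the lowest *Opa1*+/- mouse (7) were equal to 3 digits, and the log2 fold change fell to 0.086 without *Opa1*+/- mouse B (log2 fold change 0.15, SE 0.068, edgeR adjusted p = 0.742). The near-identical *Gstp2* had 86.2 ± 2.37 CPM over the WT mice and 93.5 ± 9.30 CPM over the *Opa1*+/- mice (each ± SD, n = 4), a log2 fold change of 0.12, and reads of the pair may be divided between them.
*Nqo1* (chromosome 8, 107388225 to 107403206, - strand), a quinone reductase widely used as a marker of Nrf2 activity, had 10.9, 10.4, 11.1 and 10.6 CPM in the WT mice and 9.99, 10.1, 9.10 and 9.70 CPM in the *Opa1*+/- mice. Each *Opa1*+/- mouse lay below each WT mouse, by little (log2 fold change -0.14, SE 0.082, edgeR adjusted p = 0.766, interval -0.33 to 0.040), and the unadjusted p was 0.111 with edgeR and 0.205 with DESeq2.
*Gstm1*, which conjugates electrophiles, had 206, 195, 201 and 198 CPM in the WT mice and 207, 191, 216 and 179 CPM in the *Opa1*+/- mice. The *Opa1*+/- mice spread on both sides of the WT mice (log2 fold change -0.012, SE 0.070, edgeR adjusted p = 0.978). Its relatives *Gstm2* to *Gstm7* had log2 fold changes from -0.099 (*Gstm6*) to 0.10 (*Gstm5*), and reads of these similar genes may be divided. *Gsta4*, which detoxifies the lipid peroxidation product hydroxynonenal, ranged from 107 to 196 CPM over the 8 mice, with WT mouse 4 lowest and WT mouse 6 highest. *Hmox1*, the inducible haem oxygenase, stood at 12.7 ± 2.08 CPM over the WT mice and 13.6 ± 0.859 CPM over the *Opa1*+/- mice (each ± SD, n = 4), with a log2 fold change of 0.11 (interval -0.16 to 0.38), which was 0.21 without WT mouse 4, 0.035 without WT mouse 5 and 0.054 without WT mouse 8. *Hmox2* had a log2 fold change of 0.049 (interval -0.062 to 0.16) and lies 24.8 Mb from *Opa1*, while its exons overlap those of *Cdip1* on the opposite strand.

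The 8 members listed here as enzymes of the matrix or inner membrane of mitochondria, the organelle in which *Opa1* acts, were *Sod2*, *Prdx3*, *Prdx5*, *Txn2*, *Txnrd2*, *Glrx2*, *Glrx5* and *Nnt*. Whether products of other members lie partly in mitochondria was not considered. The 8 listed had a median log2 fold change of 0.040, with 5 above 0, 0 called with edgeR and 0 at an unadjusted p under 0.05 with edgeR, DESeq2 or voom. Of all genes tested, 0.0258% were called with edgeR, and 6.72%, 5.76% and 6.9% had an unadjusted p under 0.05 with edgeR, DESeq2 and voom. The 32 other members had a median of 0.029, with 18 above 0 and 1, *Gpx4*, at an unadjusted p under 0.05 with edgeR. The summed level of all 40 members was 3344, 3435, 3363 and 3221 CPM in the WT mice and 3408, 3372, 3504 and 3565 CPM in the *Opa1*+/- mice, so the groups overlapped.

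**Figure D3:**
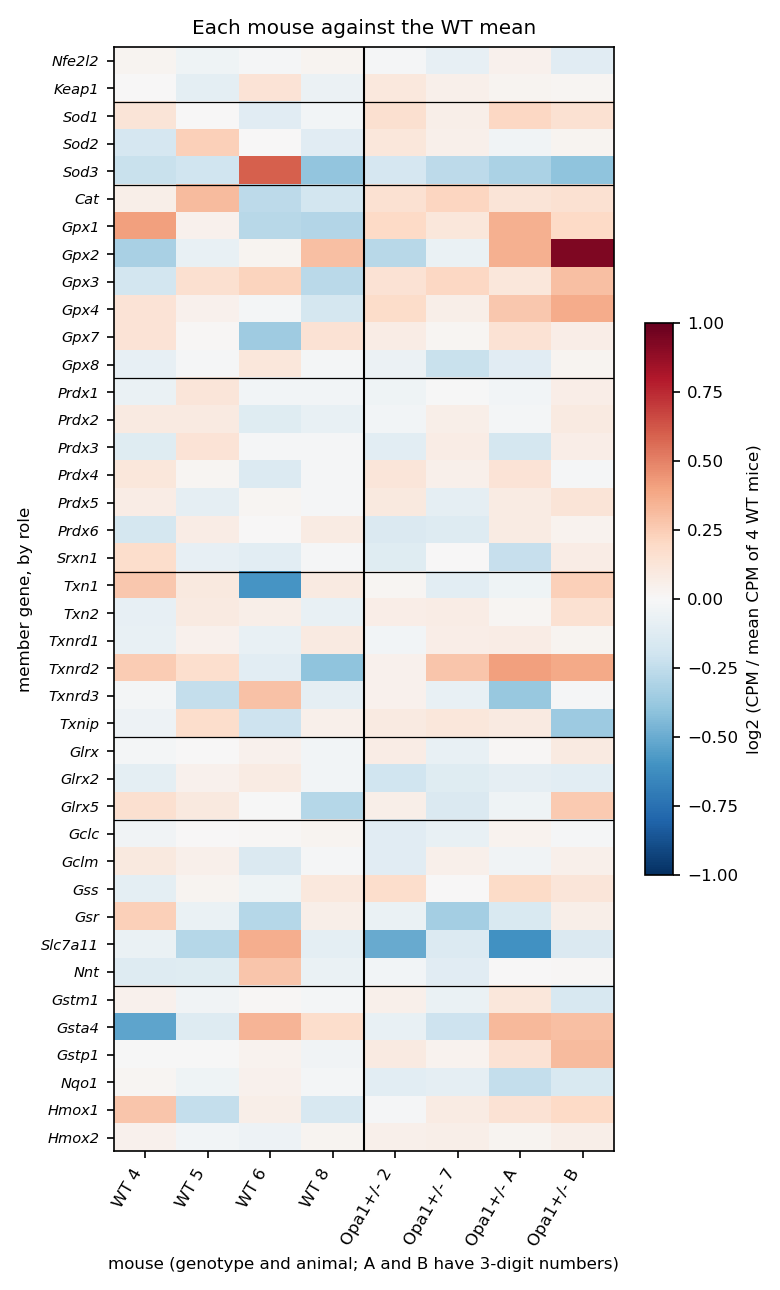
Rows are the 40 genes by role and columns the 8 mice (genotype and animal); colour gives the log2 ratio of CPM to the mean of the 4 WT mice, cut at 1 on either side. Single squares stand out rather than whole columns, among them *Sod3* in WT mouse 6 (119 CPM), *Gpx2* in *Opa1*+/- mouse B (48.8 CPM) and *Txn1* in WT mouse 6 (47.3 CPM).

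Extreme values were not spread evenly over the mice. WT mouse 6 had the highest value of 9 members and the lowest of 8, and WT mouse 4 the highest of 6 and the lowest of 9. *Opa1*+/- mouse B had the highest value of 9 members, whereas *Opa1*+/- mice 2 and 7 had the highest value of 0 members.

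The erythroid RNA of the samples varied, and the levels of *Gpx1*, *Gpx4* and *Txnrd2* had the highest Pearson correlation with it among the 40 members. By Spearman's rho *Hmox1*, at 0.81 (exact permutation p = 0.0218), stood above *Txnrd2*, which tied with *Sod1* at 0.79 (exact permutation p = 0.0279). Each of the 18 erythroid genes had a log2 fold change above 0, and their summed level was 21608, 12432, 8770 and 7783 CPM in the WT mice and 15555, 15180, 18576 and 25160 CPM in the *Opa1*+/- mice, 1.47 times as much on average (exact two-sided permutation p = 0.171, the smallest possible being 0.0286). Over the 8 mice, log2 levels correlated with the log2 erythroid sum with Pearson r = 0.91 for *Gpx1* (exact permutation p = 0.0031, adjusted over all genes tested 0.166, Spearman rho = 0.93 with exact permutation p = 0.00223). For *Gpx4* r was 0.91 (exact permutation p = 0.00191, adjusted over all genes 0.154, rho = 0.93 with exact permutation p = 0.00223), and for *Txnrd2* it was 0.88 (exact permutation p = 0.00273, adjusted over all genes 0.154, rho = 0.79 with exact permutation p = 0.0279). No member, and none of the 19330 genes with counts in each mouse, passed an adjusted p of 0.05 in this exact permutation test. At an unadjusted exact permutation p under 0.05 for r, 7 members had a positive correlation, the other four being *Sod1*, *Prdx2*, *Glrx5* and *Hmox1*, where 8.95% of all genes did, and 0 had a negative one, where 6.35% of all genes did. Without WT mice 8 and 6, farthest from the median erythroid sum on the log2 scale, r was 0.66 for *Gpx1*, 0.79 for *Gpx4* and 0.60 for *Txnrd2* over 6 mice. Groups of 4 mice are too few for a correlation within a genotype.
With the log2 erythroid sum as a covariate in edgeR, the log2 fold change moved from 0.22 to -0.020 for *Gpx1*, from 0.23 to 0.088 for *Gpx4*, from 0.28 to 0.058 for *Txnrd2* and from 0.15 to 0.069 for *Sod1*. It also moved from 0.16 to 0.059 for *Cat*, from -0.28 to -0.12 for *Sod3*, from -0.12 to -0.28 for *Gsr* and from 0.10 to 0.34 for *Gsta4*, the last pair away from 0. It moved less for *Gpx3*, from 0.19 to 0.21, and for *Slc7a11*, from -0.33 to -0.28. The median of the 40 members moved from 0.032 to 0.0094. Genotype and blood content cannot be told apart for *Gpx1*, *Gpx4*, *Txnrd2* and *Sod1* with these 8 mice, in which the 3 mice lowest in erythroid genes were all WT. WT mouse 4 and *Opa1*+/- mouse B had the highest erythroid sums and the highest neutrophil and marrow sums (1532 and 1264 CPM). They also had the lowest sums of the genes that define the cochlea (2891 and 3015 CPM). How far the erythroid sum stands for marrow or for the share of cochlear tissue was not tested.

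**Figure D4:**
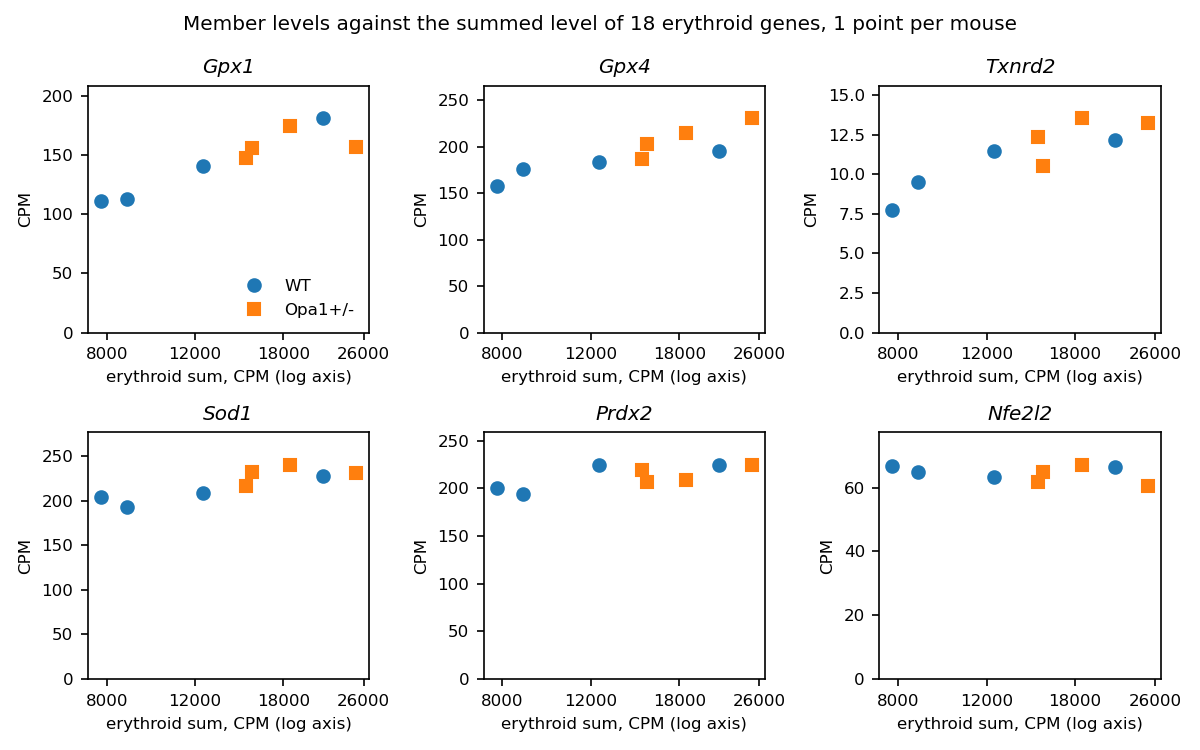
The horizontal axes give the summed CPM of 18 erythroid genes (log axis) and the vertical axes the CPM of 6 members, with 1 point per mouse (circles WT, squares *Opa1*+/-). *Gpx1*, *Gpx4* and *Txnrd2* are higher toward the right (r of 0.91, 0.91 and 0.88 on log2 scales) with WT mice 8 and 6 at the low end, while *Nfe2l2* shows r = -0.33.

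A wider set of 90 genes of the same pathways, in 4 lists, held 86 that were tested. With edgeR, 0 had an adjusted p under 0.05 and 5 were higher and 2 lower in *Opa1*+/- mice at an unadjusted p under 0.05, beside 3.51% and 3.22% of all genes tested. DESeq2 and voom called 0, with 6 and 7 at an unadjusted p under 0.05, beside 5.76% and 6.9% of all genes. Their median log2 fold change was 0.0079, with 46 above 0, and 4 genes higher and 2 lower had groups that did not overlap, beside 1.98% and 2.33% of all genes.
Of 14 partners and repressors of Nrf2, 0 had an unadjusted p under 0.05 with edgeR and 5 had a log2 fold change above 0. *Cul3*, the scaffold of the ligase that marks Nrf2 for degradation, had 134, 137, 135 and 136 CPM in the WT mice and 122, 121, 129 and 131 CPM in the *Opa1*+/- mice. Each *Opa1*+/- mouse lay below each WT mouse (log2 fold change -0.11, SE 0.053, edgeR adjusted p = 0.758). The ubiquitin ligase *Trim21*, the small Maf protein *Mafg* and the related factor *Nfe2l3* followed with log2 fold changes of 0.18, -0.095 and -0.11 and adjusted p-values with edgeR of 0.811, 0.831 and 0.839.
Of 30 further Nrf2 targets, 2 were higher and 0 lower at an unadjusted p under 0.05, and 16 had a log2 fold change above 0. The haem transporter *Slc48a1* had 90.4, 87.9, 92.3 and 88.8 CPM in the WT mice and 96.8, 99.4, 96.8 and 98.5 CPM in the *Opa1*+/- mice, without overlap (log2 fold change 0.12, SE 0.049, edgeR adjusted p = 0.722). *Akr1b8*, an aldo-keto reductase, had 5.76, 6.88, 5.26 and 5.29 CPM in the WT mice and 7.51, 7.12, 6.498 and 7.08 CPM in the *Opa1*+/- mice, overlapping only through WT mouse 5 (log2 fold change 0.28, SE 0.12, edgeR adjusted p = 0.732). *Taldo1*, of the pentose phosphate pathway, had a log2 fold change of 0.18 and *Blvrb*, a biliverdin reductase abundant in red cells, 0.32, with adjusted p-values with edgeR of 0.758 and 0.762.
Of 31 further glutathione and redox enzymes, 2 were higher and 2 lower at an unadjusted p under 0.05, and 21 had a log2 fold change above 0. *Chac1*, which degrades glutathione and is induced by the integrated stress response, had 2.34, 1.61, 2.45 and 1.52 CPM in the WT mice and 2.48, 4.46, 3.65 and 3.13 CPM in the *Opa1*+/- mice. Each *Opa1*+/- mouse lay above each WT mouse, at a low level (log2 fold change 0.80, SE 0.24, edgeR adjusted p = 0.722, unadjusted p with edgeR 0.00772). *Selenot*, a selenoprotein of the endoplasmic reticulum, had 180.4, 197, 193 and 195 CPM in the WT mice and 172, 167, 158 and 174 CPM in the *Opa1*+/- mice, without overlap (log2 fold change -0.19, SE 0.059, edgeR adjusted p = 0.722). *Sesn3*, a sestrin, had a log2 fold change of -0.17 and *Oplah*, which returns oxoproline to glutamate, 0.18, both with an edgeR adjusted p of 0.722.
Of 15 sources of superoxide and peroxide, 11 were tested, with 1 higher and 0 lower at an unadjusted p under 0.05. *Xdh*, the xanthine oxidoreductase that can release superoxide, had 20.1, 16.8, 19.5 and 19.6 CPM in the WT mice and 20.6, 22.9, 22.0 and 22.3 CPM in the *Opa1*+/- mice, without overlap (log2 fold change 0.21, SE 0.076, edgeR adjusted p = 0.722). *Nox3*, the NADPH oxidase of the inner ear, had 12.7, 8.20, 25.3 and 3.77 CPM in the WT mice and 11.9, 9.52, 5.51 and 0.830 CPM in the *Opa1*+/- mice, ranging widely in both genotypes (log2 fold change -0.83, SE 0.68, edgeR adjusted p = 0.834). The monoamine oxidase *Maoa* and the oxidase subunit *Cyba* had log2 fold changes of -0.060 and 0.084 and adjusted p-values with edgeR of 0.925 and 0.938. *Nox1*, *Noxa1*, *Duox1* and *Duox2* were too low to test.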

How the data were processed

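The authors prepared CORALL libraries from RNA of isolated cochleae, sequenced paired reads of 80 nucleotides, used molecular identifiers against amplification bias, trimmed adapters and mapped reads to GRCm38 (mm10) with STAR. For each mouse the authors deposited raw counts per gene symbol, neither normalized nor filtered. The study's methods name the CORALL Data Analysis Pipeline. The counting program within it and its use of strand are not given in the sources used here, so counts of overlapping and near-identical genes are uncertain. A result that bears on the *Txnrd2* count is not reported here. The labels name either of 2 RNA extraction reagents without saying which mouse received which. Among 47643 entries, 15 are headed by numbers rather than symbols, and these were dropped, with 0.112% to 0.124% of each library's counts.

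Counts were compared in R 4.3.3 with edgeR 4.0.16 (quasi-likelihood test, TMM factors, genotype as the only term) over the 19366 genes with a mean DESeq2-normalized count over 10, with Benjamini-Hochberg adjustment and a threshold of 0.05. The SE was derived from the fold change and the F statistic, and intervals are 95% intervals of this fit. CPM are counts per 1000000 of TMM-scaled library size, and TPM divide by summed exon length of GENCODE vM21 (GRCm38), from which coordinates were also taken. Replicates are separate mice. For single values per mouse, means were compared over all 70 arrangements of the mice (exact permutation, two-sided), and correlations by all 40320 pairings, with adjustment over all tested genes with counts in each mouse, chosen after seeing the data. Full values are given for the 10 members with the lowest p, for *Nfe2l2*, *Keap1*, *Cat*, *Sod2* and *Nnt*, and for the member with the highest TPM of each of 8 roles. Up to 4 genes with the lowest p are named from each of 4 wider lists (Nrf2 partners and repressors, further Nrf2 targets, further glutathione and redox enzymes, sources of superoxide and peroxide). Some of these are given by log2 fold change and adjusted p alone. Members, lists and marker lists were chosen with earlier results of these data known, so no test was made over the members or the pathway lists, and the permutation tests of the marker sums rest on lists chosen in this way. Alternatives were DESeq2 1.42.0 size factors, library totals alone, DESeq2's Wald test, limma 3.58.1 voom, 2 other filters on low counts, the erythroid sum as covariate, each mouse left out, both *Opa1*+/- mice with 3-digit numbers (A and B) left out, and longest transcript lengths. The fitting code was also run on simulated counts with known changes, as a check of the code only, and the outcome is not given here. Python 3.11.15, scipy 1.17.1 and matplotlib 3.10.9 were used.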

Additional observations from a re-analysis of the deposited data

Results flagged for a closer look

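In 5 of 102 groups of 4 mice examined, the members and the marker sums in each genotype, 1 mouse stood so far from the other three that the gap to the nearest, relative to the group's range, exceeded Dixon's 95% critical value. Chance gives about 1 in 20 such groups, or 5.1 of 102. *Sod3* in WT mouse 6 was 119 CPM, while the other WT mice had 60.03 to 68.8 CPM. *Nnt* in WT mouse 6 was 33.0 CPM, against 24.9 to 25.9 CPM. *Txnip* in *Opa1*+/- mouse B was 166.9 CPM, against 227.5 to 231.1 CPM in the other *Opa1*+/- mice. The summed level of 9 skeletal muscle genes in WT mouse 6 was 2014 CPM, while the others of that genotype had 168.2 to 455.6 CPM, and that of 15 neutrophil and marrow genes in WT mouse 4 was 1532 CPM, against 463.0 to 574.2 CPM.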

How the results depend on the processing

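With 4 mice per genotype, the 95% interval of the median member was 0.37 wide on the log2 scale. No paired analysis was made, because the mice are called littermates but the sample titles give no litter. Only *Opa1*+/- mice had 3-digit numbers, and what the numbers stand for is not given. In all 16 alternative fits 0 members and 0 of the wider pathway genes were called, and the lowest adjusted p of any member in these fits (edgeR, DESeq2 or limma) was 0.381 (*Gpx1*). Of 640 member fold changes, 595 kept their sign and 45, of 19 members, reversed. For *Opa1*, the edgeR call was lost with the erythroid covariate (log2 fold change -0.89), without both *Opa1*+/- mice with 3-digit numbers (-0.86) and without *Opa1*+/- mouse 2 (adjusted p with edgeR 0.0704), and its log2 fold change was -0.90 to -0.83 with 1 mouse left out. Members at an unadjusted p under 0.05 numbered 2 higher and 1 lower with DESeq2 (3 higher wider pathway genes), 2 higher with voom, 2 lower with library totals alone (1 higher wider gene), 1 lower with no filter, 0 higher and 1 lower with the erythroid covariate (2 higher wider genes), and 0 higher without both mice with 3-digit numbers (1 higher wider gene). With 1 mouse left out they numbered 0 to 4 higher (4 without WT mouse 4, 3 without *Opa1*+/- mouse 2 or 7, 2 without WT mouse 5, 0 without WT mouse 8 or *Opa1*+/- mouse A or B) and 0 to 1 lower (1 without WT mouse 4 or 5 or *Opa1*+/- mouse 7 or B), and wider genes 2 to 8 higher and 1 to 3 lower. Members whose groups did not overlap numbered 0 higher with DESeq2 size factors or library totals, 2 higher and 3 lower without both mice with 3-digit numbers, and 0 to 5 higher (5 without *Opa1*+/- mouse 7, 4 without WT mouse 4, 0 without *Opa1*+/- mouse B) and 1 to 2 lower (2 without WT mouse 4 or 5) with 1 mouse left out. Of all genes tested, 1.76% to 6.03% were higher and 1.92% to 4.33% lower at an unadjusted p under 0.05 with 1 mouse left out, both highest without WT mouse 4, and 1.46% to 3.74% and 1.44% to 4.02% in the other alternatives. Without *Opa1*+/- mouse 2 and without mouse 7, 3.48% and 3.61% of all genes were higher. Groups did not overlap for 2.4% to 6.26% (higher) and 3.07% to 5.34% (lower) of all genes with 1 mouse left out, both highest without WT mouse 4, and for 5.75% and 6.49% without both mice with 3-digit numbers. Beside the 5 members higher without *Opa1*+/- mouse 7 stood 3.83% of all genes, and beside the 4 without WT mouse 4 stood 6.26%. These counts changed with the mouse left out and were not tested, so they are not read as a result about the members. Members whose correlation with the erythroid sum passed with p adjusted over the 40 members alone numbered 3 as scaled here, 0 with library totals and 0 over 6 mice, where the few pairings let no member pass alone, so that this last count says nothing of stability. They numbered 0 with p adjusted over all genes tested, an alternative chosen after seeing the data, and the values adjusted over all genes are those given above. Log2 fold changes reversed with library totals for *Prdx2* (-0.0017), *Txn1* (-0.0035) and *Glrx* (-0.00071), with the erythroid covariate for *Gpx1* (-0.020), *Prdx2* (-0.055), *Prdx6* (0.012), *Txn1* (-0.17), *Txnip* (0.062), *Glrx5* (-0.14), *Nnt* (0.037) and *Hmox1* (-0.034), and without both mice with 3-digit numbers for *Gpx2* (-0.17), *Txn1* (-0.044), *Txnip* (0.098), *Glrx5* (-0.038) and *Gsta4* (-0.14), where the ratio of neutrophil and marrow sums was 0.691. With 1 mouse left out, reversed log2 fold changes ranged over *Sod2* -0.011 to 0.13, *Srxn1* -0.12 to 0.0021, *Gclm* -0.053 to 0.025, *Gstm1* -0.052 to 0.031, *Gsta4* -0.037 to 0.24, *Prdx1* -0.028 to 0.039, *Prdx3* -0.069 to 0.019, *Txnip* -0.066 to 0.093, *Gpx7* -0.022 to 0.12, *Prdx2* -0.011 to 0.059, *Txn1* -0.12 to 0.13, *Txnrd3* -0.17 to 0.015, *Nnt* -0.071 to 0.073, *Glrx5* -0.049 to 0.10 and *Prdx6* -0.088 to 0.0017. Ratios of marker sums, *Opa1*+/- to WT, then ranged over erythroid 1.30 to 1.93, neutrophil and marrow 0.864 to 1.59, macrophage 0.920 to 1.10, hair cell 0.903 to 1.01, spiral ganglion neuron 0.948 to 1.004, stria vascularis 0.823 to 1.01, bone 0.891 to 1.01 and skeletal muscle 0.399 to 1.34, the erythroid ratio reaching an exact permutation p of 0.0286 without WT mouse 4. The cause of these shifts was not tested.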

Other observations

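Genes of the other cell types of the cochlea and of tissue around it gave summed levels that overlapped between genotypes. The 16 Schwann cell genes had log2 fold changes above 0 in 16 of 16 cases, with sums of 6191 to 8137 CPM in WT and 6675 to 8769 CPM in *Opa1*+/- mice (exact two-sided permutation p = 0.343). Of 11 genes of the stria vascularis 1 had a log2 fold change above 0, with sums of 878.7 to 1718 CPM in WT and 1130 to 1433 CPM in *Opa1*+/- mice (exact permutation p = 0.629). Hair cell genes (18) summed to 379 to 536 CPM in WT and 412 to 459.7 CPM in *Opa1*+/- mice (exact permutation p = 0.571), and spiral ganglion neuron genes (15) to 6584 to 7708 CPM and 6593 to 7702 CPM (exact permutation p = 0.714). Sums of 13 macrophage genes were 161 to 272 CPM and 196 to 242 CPM (exact permutation p = 0.971), and those of 15 neutrophil and marrow genes 463 to 1532 CPM and 491.3 to 1264 CPM (exact permutation p = 0.83). The 7 fibrocyte and gap junction genes gave 3985 to 5547 CPM and 4279 to 5446 CPM (exact permutation p = 0.457), the 14 bone genes 1325 to 1525 CPM and 1086 to 1618 CPM (exact permutation p = 0.600), the 9 skeletal muscle genes 168 to 2014 CPM and 16.8 to 829.8 CPM (exact permutation p = 0.714), and the 8 genes that define the cochlea 2891 to 4178 CPM and 3015 to 3915 CPM (exact permutation p = 0.400). The smallest p this design allows is 0.0286.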
